A study of Arabidopsis thaliana with 6 samples.

Results

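Cytochrome P450 monooxygenases and tau-class glutathione transferases were followed in Arabidopsis thaliana seedlings after induction of the flowering regulator AGL24. The genes were chosen by name: a probe set had to be annotated to 1 gene whose symbol or synonym is CYP with a family number and a letter, or GSTU with a number. This gave 34 genes, 23 of them P450 and 11 GSTU, each with 1 of the 22746 non-control probe sets on the array. Of those probe sets, 8730 are listed for no gene, so the 34 are only a part of the families. Of 21 names listed for glucosinolates and camalexin 2 could be measured, and of 9 listed for brassinosteroid synthesis and inactivation 0 could. The CYP name is shared with cyclophilins, which are protein-folding enzymes, and 4 genes of that kind were left out. Also left out were CYP718, which has no letter after its family number, and 2 probe sets listed for several genes. Of the 23 P450 genes, 19 belong to the CYP71B subfamily, and the others are CYP84A4, CYP79A2, CYP78A9 and CYP51G2.

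P450 enzymes are haem proteins that insert an oxygen atom into a substrate, and in plants they build hormones, lignin, waxes and defence compounds. Glutathione transferases join the tripeptide glutathione to reactive molecules, which can then be moved into the vacuole. The tau class is found in plants, and many of its genes are known for their response to herbicides, safeners and oxidative stress. In detoxification an oxidation by P450 is often followed by a conjugation step of this kind.

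RNA was measured in 9-day-old seedlings on 6 Affymetrix arrays, 2 for each of 3 groups. The groups were HY213 after 8 h of estradiol, wild type after 8 h of estradiol and HY213 after 8 h of mock treatment, and the ecotype is given as Columbia for all samples but mock replicate 1. HY213 is taken to be the pER22-AGL24 line of the design text, in which estradiol switches on AGL24 through the XVE system, a chimeric activator that needs the hormone. Each array holds a pool of whole seedlings of 1 line, so a smaller share of a cell type and less RNA per cell cannot be told apart. No mock-treated wild type is among the samples, so estradiol and line cannot be separated in a comparison of estradiol-treated wild type with mock HY213.

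AGL24 itself read 106 and 401 in estradiol-treated HY213, 5.05 and 4.60 in estradiol-treated wild type, and 4.98 and 4.87 in mock HY213. AGL24 was thus high on both HY213 estradiol arrays and below background on the other 4. With the low arrays set at their highest Bacillus control, AGL24 was at least 36.7-fold higher than in mock HY213 and at least 36.0-fold higher than in wild type. On the deposited values its adjusted p against mock was 1 in limma and 0.0264 with the replicate as a block, so the model without the block does not call even the induced gene. Array medians lay between 6.95 and 7.27 intensity units. The highest Bacillus control probe set, which has no target in plant RNA and is used here as the background, read 5.14 to 6.22. Whole-seedling character was checked with named markers: the root gene PYK10 read 1044 to 1374 and the leaf gene LHCB4.1 read 908 to 1286. The anther gene AMS was not above background on any array, the shoot apex gene CLV3 on 1 and the seed gene OLEO3 on 4.

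A first result concerns which of these genes were detected at all. On all 6 arrays, 10 of the 34 genes read above the highest Bacillus control, which is 29.4%, against 53.2% of all probe sets. Another 8 were above it on some arrays, which depended in part on the replicate. The highest Bacillus control read 5.99 to 6.22 on replicate 1 arrays and 5.14 to 5.31 on replicate 2 arrays. Above it were 11 to 13 members on replicate 1 arrays and 16 to 18 on replicate 2 arrays. Of all probe sets 58.2% to 60.5% and 69.0% to 72.7% were. GSTU18, GSTU22, CYP71B34 and CYP79A2 were above it on replicate 2 arrays only. The remaining 16 were above it on 0 arrays, which is 47.1%, against 23.1% of all probe sets, and they read 3.81 to 5.71. Their differences between groups are therefore differences within the background.

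**Figure D1:**
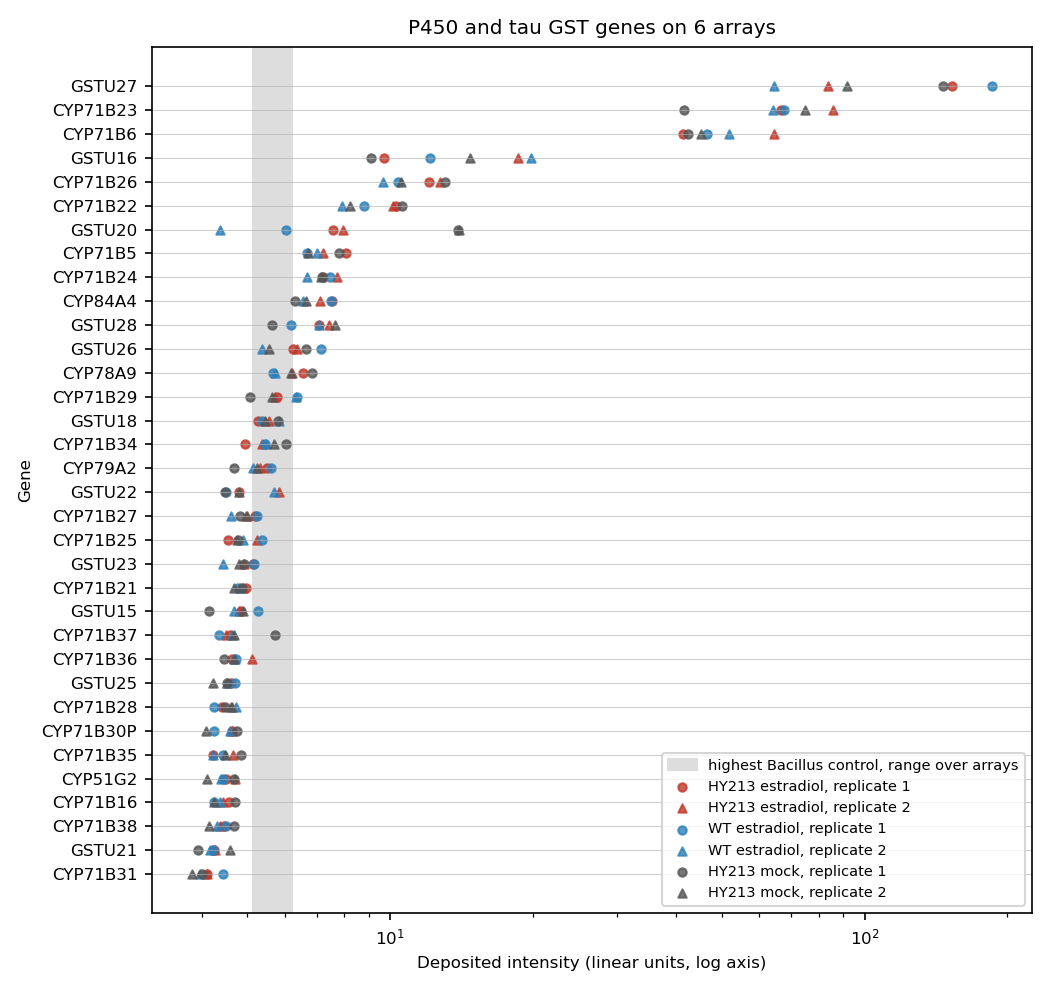
Deposited intensity of the 34 genes on each of the 6 arrays, on a log axis, with circles for replicate 1 and triangles for replicate 2. The grey band spans the highest Bacillus control of the arrays, 5.14 to 6.22, and levels of different genes come from different probes and are not comparable. The groups of GSTU20 lie apart from each other, from 4.38 in wild type to 14.0 in mock HY213. The groups of CYP71B29 and CYP71B34 do not overlap either, within 5.07 to 6.36 and 4.94 to 6.04. The share of all probe sets with groups apart in this way was not counted.

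Among the tau glutathione transferases, 3 of 11 were above background on all arrays (GSTU16, GSTU26 and GSTU27), 4 on some arrays (GSTU18, GSTU20, GSTU22 and GSTU28) and 4 on none (GSTU15, GSTU21, GSTU23 and GSTU25). Among the P450 genes, 7 of 23 were above it on all arrays, namely CYP71B5, CYP71B6, CYP71B22, CYP71B23, CYP71B24, CYP71B26 and CYP84A4. CYP84A4 belongs to the family of ferulate 5-hydroxylase and takes part in making pyrone compounds. CYP71B6 oxidises indole-3-acetonitrile, a breakdown product of indole glucosinolates. CYP78A9, of a subfamily that promotes organ and seed growth, was above background on 5 arrays. CYP79A2, which converts phenylalanine to its oxime on the way to benzylglucosinolate, was above it on 2. CYP51G2, a relative of the sterol 14-demethylase gene, and CYP71B27 are listed as transcribed pseudogenes in RefSeq, and neither was above background on any array. CYP71B30P, which carries the P of a pseudogene in its name, was not above it either.

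Many of the genes lie close together on the chromosomes. The choice by name is not independent of position, since genes with consecutive numbers, such as CYP71B21 to CYP71B24, lie in the same run. The share of other genes in such runs was not counted. Of the 34, 25 lie in 7 runs of neighbours with at most 4 other genes between members, by RefSeq gene order. Chromosome 3 holds 17 members, and the run there from CYP71B16 (AT3G26150) to CYP71B24 (AT3G26230) has 5 members within 10 genes. Of these, CYP71B22, CYP71B23 and CYP71B24 were above background on all 6 arrays, and CYP71B16 and CYP71B21 on none. The next run, from CYP71B25 (AT3G26270) to CYP71B37 (AT3G26330), has 6 members within 8 genes. There CYP71B26 was above background on all 6 arrays, CYP71B34 on 3, and CYP71B25, CYP71B35, CYP71B36 and CYP71B37 on none. Detection thus differed between direct neighbours. The same held for the GSTU run on chromosome 1, where GSTU20 (AT1G78370) stood above background on 4 arrays, GSTU22 (AT1G78340) on 2, and GSTU21 (AT1G78360) and GSTU23 (AT1G78320) on none. Close relatives in such runs can share sequence, and cross-hybridisation between their probe sets was not tested. A probe set listed for both CYP71B19 and CYP71B20 is outside the 34 genes. It read 20.7 and 71.6 in estradiol-treated HY213, 28.0 and 44.4 in estradiol-treated wild type, and 29.2 and 32.9 in mock HY213.

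GSTU20 showed the clearest separation of the groups. This enzyme has been described as a partner of the jasmonate-conjugating protein FIN219/JAR1 in far-red light signalling. The gene (AT1G78370) had been singled out in an earlier analysis of these data, so its choice was not independent of its values. It read 7.56 and 7.93 in estradiol-treated HY213, 6.02 and 4.38 in estradiol-treated wild type, and 13.9 and 14.0 in mock HY213. The means were 7.75 ± 0.265, 5.20 ± 1.16 and 13.9 ± 0.0472 in the same groups (SD, n = 2 each). No array of one group overlapped with another group, and both mock arrays were high. CYP71B29 and CYP71B34 also had 3 groups without overlap, over a narrower range near background. The share of all probe sets with 3 groups apart was not counted, so the number of such genes is not read as a result. The sums of the root markers and of the leaf markers, given with the replicate comparison, overlapped between all groups. PYK10 makes up most of the root sum, which can hide the root hair genes EXPA7 and EXPA18. EXPA7 was lower than mock within each replicate, with log2 differences of -0.19 in estradiol-treated HY213 and -0.43 in estradiol-treated wild type. EXPA18 differed by -0.62 in HY213 (unadjusted p 0.0426 and adjusted p 0.996 with the replicate as a block). In wild type its replicates went opposite ways. The part of these markers in the GSTU20 result was not tested. On both wild-type arrays GSTU20 was below background, so the wild-type level has an upper bound only.

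**Figure D2:**
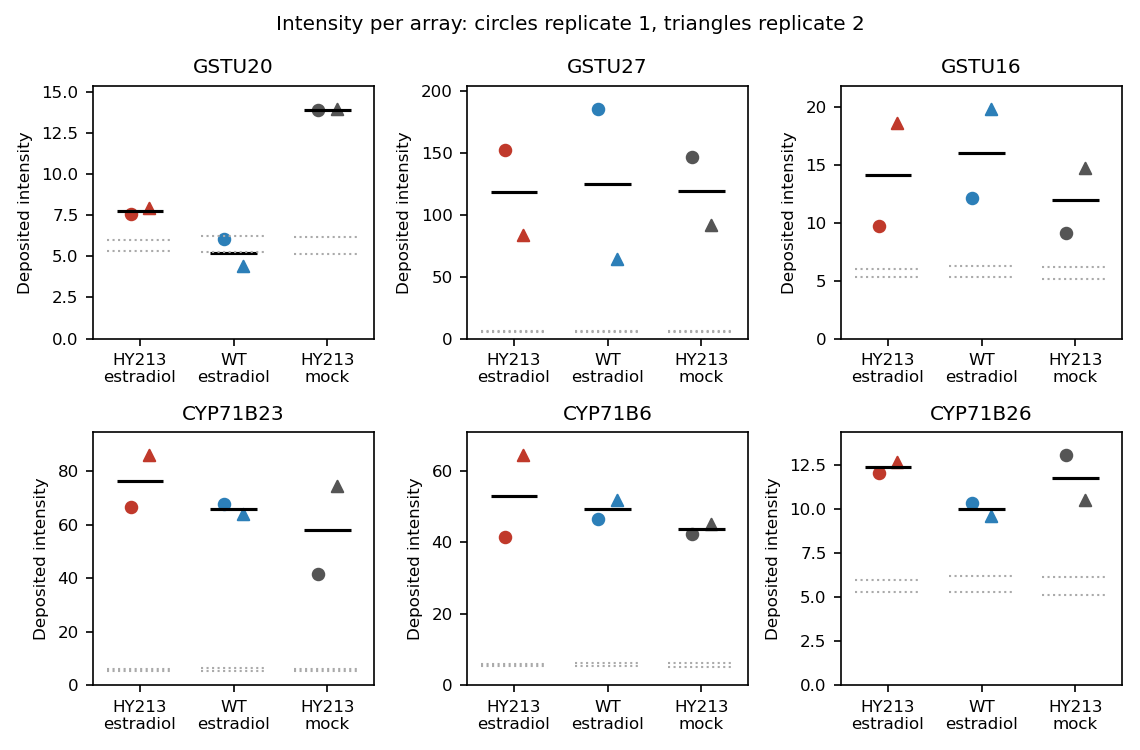
Deposited intensity per array for GSTU20, GSTU27, GSTU16, CYP71B23, CYP71B6 and CYP71B26, with a bar at the mean of 2 arrays and dotted lines at the highest Bacillus control of each array. GSTU20 separates the groups, while GSTU27 and GSTU16 separate circles (replicate 1) from triangles (replicate 2).

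Within HY213, estradiol was set against mock treatment to ask which of these transcripts differ once AGL24 is on, with any effect of the hormone included. GSTU20 was 1.84-fold lower after estradiol in replicate 1 and 1.76-fold lower in replicate 2. The log2 difference was -0.85 ± 0.18 (SE), with an unadjusted p of 0.00277 and an adjusted p of 1 in limma. With the replicate as a block it had an unadjusted p of 0.000559 and an adjusted p of 0.792. The difference did not pass the threshold of 0.05 in either model. It was the 1 gene of 34 with at least 1.5-fold lower values in both replicates, where 0.0659% of all probe sets met that criterion. As GSTU20 had been singled out from these data, that count is not independent of the choice of genes. At least 1.5-fold higher were 0 of 34, against 0.145% of all probe sets.

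The P450 genes among the 34 differed less than GSTU20. CYP71B23 read 66.5 and 85.9 in estradiol-treated HY213, against 41.7 and 74.7 in mock HY213. Its log2 difference was 0.44 ± 0.34 (SE), the ranges overlapped, and mock replicate 1 was the low array. Without that array the difference was 0.018. CYP84A4 read 7.52 and 7.10 in estradiol-treated HY213, against 6.29 and 6.64 in mock HY213. These arrays did not overlap, and the log2 difference was 0.18 ± 0.12 (SE). CYP71B34 read 4.94 and 5.37 in estradiol-treated HY213, against 6.04 and 5.69 in mock HY213, with no overlap and a log2 difference of -0.19 ± 0.086 (SE). All replicate 1 values of CYP71B34 lay under the background of their array, and with low values raised to that background its difference was -0.063. The other genes singled out by small p, GSTU22 (4.80 and 5.84 against 4.48 and 4.80), CYP79A2 (5.48 and 5.32 against 4.69 and 5.24) and CYP71B37 (4.59 and 4.50 against 5.71 and 4.68), read at or near background in both groups. CYP71B37 is a member of the chromosome 3 run, and its gap rested on the mock replicate 1 array.

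Over all 34 genes, 26 had a positive difference and 8 a negative one, which is 76.5% positive against 49.4% of all probe sets. The median was 0.062 on the log2 scale, against -0.0018 over all probe sets. The 26 include genes above background on no array, whose differences lie within the background. Of the 34, 7 were higher in estradiol-treated HY213 with no overlap, against a background of 12.8%, and 3 were lower with no overlap, against 10.7%. Of the 7, CYP71B24 and CYP84A4 were above background on all 6 arrays, CYP71B29 and CYP79A2 on some, and CYP71B21, CYP71B31 and GSTU25 on none. Without the mock replicate 2 array, 19 of the 34 had a positive difference and the median was 0.016. After quantile normalization 23 of the 34 did, with a median of 0.049 against -0.0037 over all probe sets. limma called 0 of 34 members and 0 of 22746 probe sets, a background of 0%, and 1 member had an unadjusted p under 0.05 (1.22% of all probe sets). With the replicate block 0 members were called, against 0.0044% of all probe sets, and 2 had an unadjusted p under 0.05 (4.3% of all probe sets).

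The hormone was held constant by setting HY213 against wild type, both after estradiol. Without a mock-treated wild type, induced AGL24 and other differences of the line cannot be told apart here. GSTU20 was at least 1.35-fold higher in HY213, with wild-type arrays set at their highest Bacillus control. On the deposited values its log2 difference was 0.59 ± 0.18 (SE), with an unadjusted p of 0.0152 and an adjusted p of 1 in limma, and with the replicate block an unadjusted p of 0.00499 and an adjusted p of 0.996. Without wild-type replicate 2 the log2 difference was 0.36, and without wild-type replicate 1 it was 0.82. None of the 34 genes was at least 1.5-fold higher in both replicates (0 of 34, against 0.114% of all probe sets) or lower (0 of 34, against 0.127%).

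CYP71B26 and CYP71B22, both of the CYP71B subfamily on chromosome 3, read higher in HY213 on both arrays. CYP71B26 read 12.1 and 12.7 in estradiol-treated HY213, against 10.4 and 9.63 in estradiol-treated wild type, a log2 difference of 0.31 ± 0.18 (SE). CYP71B22 read 10.3 and 10.1 in estradiol-treated HY213, against 8.79 and 7.92 in estradiol-treated wild type, a log2 difference of 0.29 ± 0.18 (SE). Neither passed, with an adjusted p of 1 in limma for both and of 0.996 with the replicate block. In mock HY213 CYP71B26 read 13.1 and 10.5 and CYP71B22 read 10.6 and 8.21, which overlapped with estradiol-treated HY213 in both genes.

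CYP78A9 read 6.55 and 6.19 in estradiol-treated HY213, against 5.67 and 5.70 in estradiol-treated wild type. CYP71B29 read 5.78 and 5.71 in estradiol-treated HY213, against 6.36 and 6.33 in estradiol-treated wild type. The arrays of these genes did not overlap, and their log2 differences were 0.16 ± 0.10 (SE) for CYP78A9 and -0.14 ± 0.094 (SE) for CYP71B29, with levels close to the background. With low values raised to it the CYP78A9 difference was 0.097. GSTU16 read 9.70 and 18.6 in estradiol-treated HY213, against 12.1 and 19.8 in estradiol-treated wild type, so its replicates differed more than its groups.

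Over the 34 genes, 26 had a positive difference (76.5% against 51.0% of all probe sets) and the median was 0.046, against 0.0030 over all probe sets. Here too the 26 include genes above background on no array. Of the 34, 10 were higher in HY213 with no overlap, against a background of 12.7%, and 2 were lower, against 10.5%. Of the 10, CYP71B5, CYP71B22 and CYP71B26 were above background on all 6 arrays and 5 were above it on none. Both comparisons use the same estradiol HY213 arrays, so their counts are not separate evidence. Without wild-type replicate 2, 20 of the 34 had a positive difference. After quantile normalization 22 of the 34 did, with a median of 0.031 against -0.0029 over all probe sets. limma called 0 of 34 members, against 0% of all probe sets, and 1 had an unadjusted p under 0.05 (0.769% of all probe sets). With the replicate block it called 0 members, against 0.0044%, with 1 at an unadjusted p under 0.05 (3.63%).

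**Figure D3:**
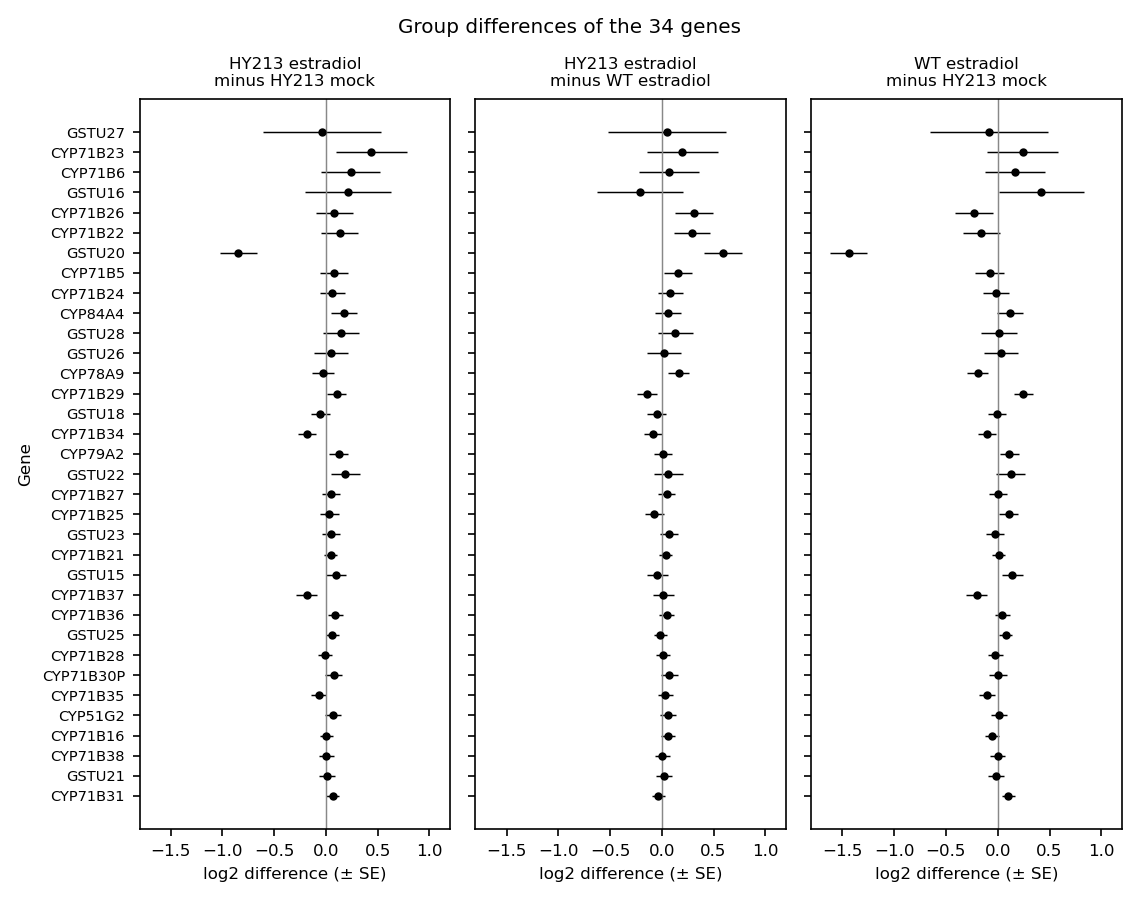
Log2 differences of the 34 genes in the 3 group comparisons, as points with SE from limma over all 6 arrays, on the same scale in each panel. GSTU20 lies farthest from 0 in each panel, at -0.85, 0.59 and -1.44. The SE of GSTU27 and GSTU16 are wide in this fit without the replicate block (0.57 and 0.41, against 0.23 and 0.15 with it).

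Wild type after estradiol was also set against mock HY213, a pair without induced AGL24 that differs in both line and hormone. GSTU20 was at least 2.43-fold lower in wild type, with wild-type arrays at their highest Bacillus control. On the deposited values it was 2.31-fold lower in replicate 1 and 3.19-fold lower in replicate 2, a log2 difference of -1.44 ± 0.18 (SE). The unadjusted p was 0.000143 and the adjusted p 1 in limma, and with the replicate block the unadjusted p was 1.25e-05 and the adjusted p 0.284. GSTU20 read lower in both estradiol-treated groups than on the mock HY213 arrays, which these comparisons share. Neither comparison passed the threshold, and wild type differs from mock HY213 in line as well as hormone. The parts of hormone, line and AGL24 in this were not tested.

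GSTU16 read 12.1 and 19.8 in estradiol-treated wild type, against 9.12 and 14.7 in mock HY213, which is 1.33-fold and 1.34-fold higher within the replicates. Its log2 difference of 0.42 ± 0.41 (SE) had an unadjusted p of 0.345 in limma. With the replicate block the SE was 0.15 and the unadjusted p 0.0243 (adjusted p 0.846). With single arrays left out the difference ranged from 0.068 without wild-type replicate 2 to 0.77 without wild-type replicate 1. CYP71B29 read 6.36 and 6.33 in estradiol-treated wild type, against 5.07 and 5.64 in mock HY213, a log2 difference of 0.25 ± 0.094 (SE) with an unadjusted p of 0.0365 and an adjusted p of 1 in limma. Mock replicate 1 was below background, and with low values raised to it the difference was 0.11. CYP78A9 read 5.67 and 5.70 against 6.83 and 6.19 in the same groups. CYP71B37 (4.36 and 4.63 against 5.71 and 4.68) and CYP71B31 (4.43 and 3.97 against 4.02 and 3.81), of which CYP71B31 is known to oxidise linalool, were within the background in both groups. CYP71B6 read 46.5 and 51.8 in estradiol-treated wild type, against 42.3 and 45.1 in mock HY213, with no overlap and a log2 difference of 0.17 ± 0.29 (SE). In estradiol-treated HY213 it read 41.3 and 64.3, which spans both groups.

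Of the 34 genes, 18 had a positive and 16 a negative difference (52.9% positive against 49.9% of all probe sets), with a median of 0.0031. Of these, 4 were higher with no overlap, against a background of 11.4%, and 6 lower, against 10.6%. GSTU20 was again the 1 gene at least 1.5-fold lower in both replicates, where 0.119% of all probe sets were, and 0 were higher to that extent (0.163%). Here too GSTU20 was a gene already singled out from these data. limma called 0 of 34 members, against 0% of all probe sets, and 2 had an unadjusted p under 0.05 (1.18% of all probe sets). With the replicate block it called 0 members, against 0%, with 3 at an unadjusted p under 0.05 (5.49%).

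The replicate numbers mark biologically independent pools of seedlings, and they separated some of these genes more than the groups did. GSTU27 was lower in replicate 2 than in replicate 1 in every group. It read 83.8 in replicate 2 and 153 in replicate 1 of estradiol-treated HY213, 64.4 and 186 in estradiol-treated wild type, and 91.7 and 146 in mock HY213. The log2 difference of replicate 2 from replicate 1 was -1.02 ± 0.19 (SE), with an adjusted p of 0.0138 in limma. Between groups GSTU27 differed by -0.036 ± 0.57 (SE) for estradiol HY213 against mock and by 0.049 ± 0.57 (SE) for estradiol HY213 against wild type. With the replicate as a block the SE was 0.23 in both comparisons. GSTU16 went the other way, at 18.6 in replicate 2 and 9.70 in replicate 1 of estradiol-treated HY213, 19.8 and 12.1 in estradiol-treated wild type, and 14.7 and 9.12 in mock HY213. Its log2 difference was 0.78 ± 0.12 (SE), with an adjusted p of 0.00814 in limma. Replicate 2 did not overlap with replicate 1 in either gene. In all, 4 of 34 genes were higher in replicate 2 with no overlap, against 16.5% of all probe sets, and 3 were lower, against 18.5%. Of these, CYP71B28, CYP71B38 and GSTU23 were not above background on any array.

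GSTU22 and GSTU28 were also higher in replicate 2 with no overlap, with log2 differences of 0.24 ± 0.067 (SE) and 0.24 ± 0.10 (SE). They did not pass (adjusted p 0.0556 and 0.165 in limma), and GSTU22 lay near background. GSTU28 was below background on replicate 1 of wild type (6.19) and of mock HY213 (5.63). The P450 genes ranged from -0.18 to 0.38, and 0 of 23 passed, with the lowest adjusted p at 0.243 in CYP71B23. GSTU20 differed by -0.13 ± 0.13 (SE) between the replicates. Among the 34 genes 2 were called, which is 5.88% against 11.7% of all probe sets, with 1 higher (6.74% of all) and 1 lower (4.94% of all). GSTU16 was the 1 gene at least 1.5-fold higher in all 3 groups (2.43% of all probe sets) and GSTU27 the 1 lower to that extent (1.23%). An unadjusted p under 0.05 was reached by 4 of 34, against 28.4%. A positive difference was found in 13 of 34 (38.2%, against 44.2%), and in 18 of 34 after median scaling or quantile normalization. Without either estradiol-treated HY213 array, 0 of 34 were called (adjusted p of 0.0693 to 0.0746 for GSTU16 and 0.0542 to 0.0547 for GSTU27). Root markers moved with the replicates: EXPA7 and EXPA18, expansins of root hair cells, had log2 differences of -0.73 and -1.04 (adjusted p 0.0224 and 0.0195). The sum of the 3 named root markers of the 10 listed was 1178 and 1414 in replicates 2 and 1 of estradiol-treated HY213, 1063 and 1328 in wild type, and 1196 and 1367 in mock. The 2 named leaf markers of the 14 listed summed to 1513 and 1164, 1749 and 1309, and 1487 and 1362 in the same order. Their part in the GSTU27 and GSTU16 results was not tested.

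**Figure D4:**
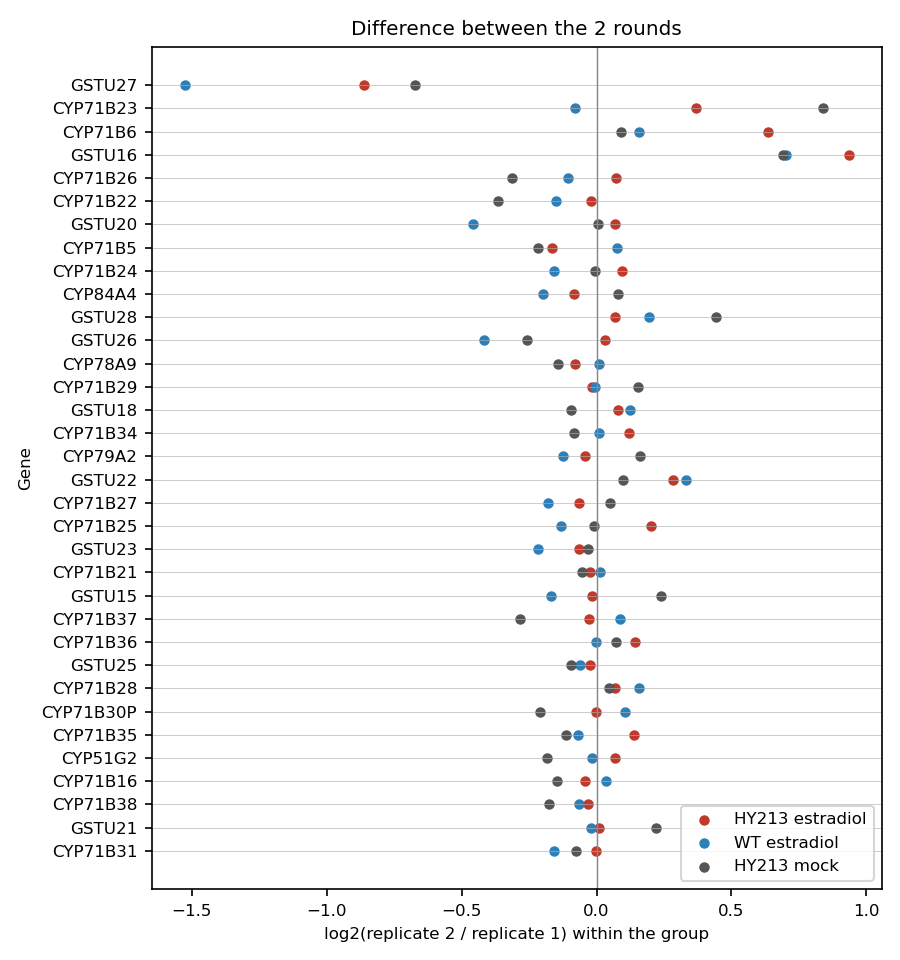
Log2 ratio of replicate 2 to replicate 1 within each group for the 34 genes, with 1 point for each group. All 3 points of GSTU27 lie below 0 and all 3 of GSTU16 lie above 0, while GSTU20 stays near 0 in HY213.

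Genes that work beside these enzymes were followed through lists of other glutathione transferases, glutathione reductases, conjugate exporters, P450 electron donors, xenobiotic response genes and the glucosinolate, brassinosteroid and phenylpropanoid pathways. Of the 144 names in these 8 lists, 11 genes have a probe set that could be named, so the lists describe the pathways thinly. The symbol CHI matched a chitinase gene and not chalcone isomerase, and it was not counted. In HY213 after estradiol against mock, 4 of 11 were higher, 7 lower and 0 called by limma, and 0 had an unadjusted p under 0.05. Their log2 differences ran from -1.18 to 0.98. Against wild type 7 were higher, 4 lower and 0 called, and 0 had an unadjusted p under 0.05. In wild type against mock HY213 4 were higher, 7 lower and 0 called, again with 0 at that level. With the replicate block an unadjusted p under 0.05 was reached by 2 of 11 in HY213 against mock (4.3% of all probe sets), by 1 in HY213 against wild type (3.63%) and by 4 in wild type against mock HY213 (5.49%), and 0 were called in each. Between replicates limma called 1 of 11, against 11.7% of all probe sets.

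AER, an alkenal reductase that detoxifies reactive carbonyls, read 67.7 and 188 in estradiol-treated HY213, 88.3 and 136 in estradiol-treated wild type, and 55.8 and 58.8 in mock HY213. Both estradiol-treated groups lay above both mock arrays. Its log2 difference from mock was 0.98 ± 0.50 (SE) in HY213 and 0.94 ± 0.50 (SE) in wild type, with an adjusted p of 1 in limma for both. With the replicate block the unadjusted p was 0.0110 in HY213 (adjusted p 0.996) and 0.0136 in wild type (adjusted p 0.846). BCAT4, an aminotransferase that starts the chain elongation of methionine for aliphatic glucosinolates, read 217 and 53.4 in estradiol-treated HY213, 193 and 35.1 in estradiol-treated wild type, and 282 and 212 in mock HY213. It was lower than mock within each replicate in both estradiol-treated groups. Replicate 1 of estradiol-treated HY213 exceeded mock replicate 2, so those groups overlapped, while both wild-type arrays lay below both mock arrays. The log2 difference from mock was -1.18 ± 0.92 (SE) in HY213, and with the replicate block its unadjusted p was 0.0199 (adjusted p 0.996). In wild type it was -1.57 ± 0.92 (SE), with an unadjusted p of 0.00479 with the block (adjusted p 0.846). Between replicates BCAT4 differed by -1.63 ± 0.34 (SE), with an adjusted p of 0.0201 in limma.

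GSTL3, a glutathione transferase of the lambda class, read 138 and 181 in estradiol-treated HY213, against 111 and 118 in estradiol-treated wild type and 159 and 146 in mock HY213. HCT, which makes hydroxycinnamoyl esters for lignin, read 57.5 and 58.7 in estradiol-treated HY213, against 45.4 and 42.3 in estradiol-treated wild type and 57.4 and 68.2 in mock HY213. Both genes were lower on the wild-type arrays than on the other 4, and neither passed (log2 difference of HY213 from wild type 0.47 ± 0.25 and 0.41 ± 0.23 (SE), adjusted p 1 in limma). With the replicate block GSTL3 had an unadjusted p of 0.0382 in that comparison, and HCT one of 0.0240 in wild type against mock HY213 (adjusted p 0.996 and 0.846). UGT73B5, a glucosyltransferase of stress responses, read 11.4 and 11.5 in estradiol-treated HY213, 10.1 and 18.5 in estradiol-treated wild type, and 8.83 and 10.3 in mock HY213. Its log2 difference of wild type from mock HY213 was 0.52 ± 0.29 (SE), with an unadjusted p of 0.0364 with the block (adjusted p 0.846), and the arrays overlapped. UGT74B1, a glucosyltransferase of glucosinolate synthesis, read 24.7 to 67.0 over the 6 arrays, with all groups overlapping. The glutathione reductase genes GR1 and GR had log2 differences of -0.053 and -0.34 in estradiol-treated HY213 against mock HY213.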

How the data were processed

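Per the labels' protocols, RNA from 6 pools of seedlings was labelled with biotin for Affymetrix arrays. The authors deposited 1 table of intensity values on a linear scale. MAS5 and RMA are both listed, per the submitters' processing notes, and nothing in the sources used here says which of them gave the table. Groups and replicate numbers come from the sample titles.

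The 64 control probe sets were left out, and 22746 were tested. Of these, 13513 are listed for 1 gene in the platform annotation, and 13436 of those matched RefSeq (TAIR10.1). The members and gene lists were chosen with earlier results of these data known. A probe set was called above background on an array where it exceeded the highest of 27 Bacillus controls there.

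The log2 values, with no pseudocount, entered a linear model of limma (3.58.1, under R 4.3.3) with the 3 groups and all 6 arrays together, and empirical Bayes followed the trend of variance with level. P-values were adjusted by Benjamini-Hochberg over all probe sets with a threshold of 0.05. The 2 replicates were compared with group as a covariate. Deviations from group means correlated between groups at 0.606 to 0.779 across probe sets. The replicate number was therefore taken to pair the arrays, and values with it as a block stand beside the results. Unless stated otherwise, the SE of group differences are from the fit without the block, also beside p-values with the block. The design text describes independent pools. The 2 arrays per group limit the precision. P-values of the group comparisons without the block measure the spread between these pools. With the block, the shift shared by a replicate number is taken out of that spread. In the replicate comparison the p-values measure how evenly the same shift recurs in the 3 groups. They do not measure how far further replicates would vary. The group fits were also run on data simulated with the variances and replicate shift of these arrays. Only the return of the set log2 differences on average was required there, which does not test the p-values or calls.

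Values per array are given for GSTU20; the 5 members with the smallest p in each group comparison, with and without the block; members past the threshold between replicates; the 6 members with the highest means; and members 1.5-fold apart in both replicates. For the other lists up to 4 genes are named by p. Other genes were named after their values were seen. Alternatives were pseudocounts of 4 and 16, quantile and median normalization, a filter on dim probe sets, other variance priors, 4 arrays, the block, single arrays left out, a threshold of 0.1 and other choices of probe set. Raising low member values to the Bacillus control, and the block with a pseudocount of 16, were added after the data were seen.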

Additional observations from a re-analysis of the deposited data

How the results depend on the processing

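Counts of called members stayed at 0 under every alternative run for the 3 group comparisons, the replicate block included (0, 0 and 0); leaving out each array in turn gave 0 to 0. GSTU20 kept its direction in all of them: from -0.88 to -0.81 against mock, from 0.36 to 0.82 against wild type and from -1.67 to -1.21 for wild type against mock with 1 array left out. With a pseudocount of 16 these were -0.33, 0.16 and -0.50, and the blocked adjusted p was 0.998, 0.998 and 0.315. Between replicates, 0 members were called without both estradiol-treated HY213 arrays, where GSTU16 was 0.70 and GSTU27 -1.10, and fewer arrays enter there. With group as a covariate, leaving out 1 array gives the same difference as leaving out both arrays of its group. These fits are therefore not separate checks. GSTU16 ranged from 0.70 to 0.82 and GSTU27 from -1.19 to -0.77 with 1 array left out. CYP79A2 for estradiol against mock in HY213 turned to -0.010 with low member values raised to the Bacillus control, with and without the block, since most of its values lie under that level. The block changed no call among these results. Signal over background limits the 16 genes not above it on any array. Choosing other probe sets changed nothing, since each member has 1.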
